A study of Mus musculus with 32 samples.

Results

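The level of 10 genes of the complement system and of the microglial surface was followed through single cells of the adult mouse median eminence (ME), the part of the ventral hypothalamus where nerve endings meet leaky capillaries. The genes were chosen by name: the 3 chains of C1q (C1qa, C1qb and C1qc), the complement proteins C3 and C4b, the C3a receptor C3ar1, the C1 inhibitor Serping1, and the microglial receptor genes Trem2, Tyrobp and Csf1r. All 10 had a row among the 27998 genes of the deposited matrix. The ME came from 5 C57B/L6 mice fasted for 16 h and 5 mice refed for 1 h after the same fast, aged 40 to 47 days and male per the study's methods. The tissue was combined by condition, dissociated with papain, sorted for live nucleated cells and split over 2 droplet libraries per condition. The matrix holds 5982 cells, each barcode ending in a number from 1 to 4. The sources used here do not say which library or which feeding state a number stands for. Fasted and refed cells could therefore not be separated, the matrix counts as 1 sample, and nothing below is a test. Values are given for all cells and for each of the 4 barcode numbers, which show the spread between parts of the data and are not replicates of a condition.

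Complement is a set of mostly secreted proteins that tag targets for removal. C1q, built from 3 kinds of chain, binds a target and switches on the proteases C1r and C1s; these cut C4, and the resulting enzyme cuts C3, whose fragments coat the target or signal through receptors such as C3ar1. Serping1 blocks C1r and C1s. In brain, C1q made by microglia is known for its part in synapse removal, while Csf1r is the receptor that microglia and other macrophages need to survive, and Trem2 is a lipid-sensing receptor that signals through the adaptor Tyrobp.

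Cells were clustered without the 10 genes and named from marker lists that did not hold them, so the names below stand for microglia-like, macrophage-like and other marker-defined cells. Microglia numbered 404 cells with a median of 3086.5 unique molecular identifiers (UMIs, 1 per captured transcript) per cell, and macrophages numbered 112 cells with a median of 2983. The 10 microglial markers (Cx3cr1, P2ry12, Tmem119 and others) summed to 20664 UMIs per 1e+06 UMIs (CPM) in microglia (20283 to 21428 over barcode numbers) and 4552 in macrophages (4344 to 4742). The 10 macrophage markers (Mrc1, Pf4, Cd163 and others) summed to 140 CPM in microglia (91.1 to 168), where F13a1, Cd209f and Clec10a were at 0, and to 6526 CPM in macrophages (6056 to 6968). Of the blood cell lists, T and NK cell genes had 0 UMIs in microglia and 1 in macrophages, and the 3 neutrophil genes had 0 in both. Of the 3 monocyte genes, Ly6c2 was at 0 in both classes, and the summed level was 4.42 CPM in microglia and 117 CPM in macrophages. Of the 4 dendritic cell genes, Xcr1 was at 0 in both, and the sum was 0.737 and 16.7 CPM. Of the 3 B cell genes, Cd79a and Ms4a1 were at 0 in both, and the other, Cd79b, was at 56.7 CPM in microglia and 55.7 CPM in macrophages. The other named types were astrocytes (1420 cells), tanycytes (1491), ependymocytes (199), OPCs (304), diffOPCs (138), MOLs (655), neurons (556), pars tuberalis cells (60), VLMCs (268), mural cells (78) and endothelial cells (84). Depth was even, with 6508038 to 7806887 UMIs for a barcode number, and 21 barcode sequences occurred under more than 1 number. Intervals in parentheses are exact, at 95%, and cover counting error only.

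**Figure D1:**
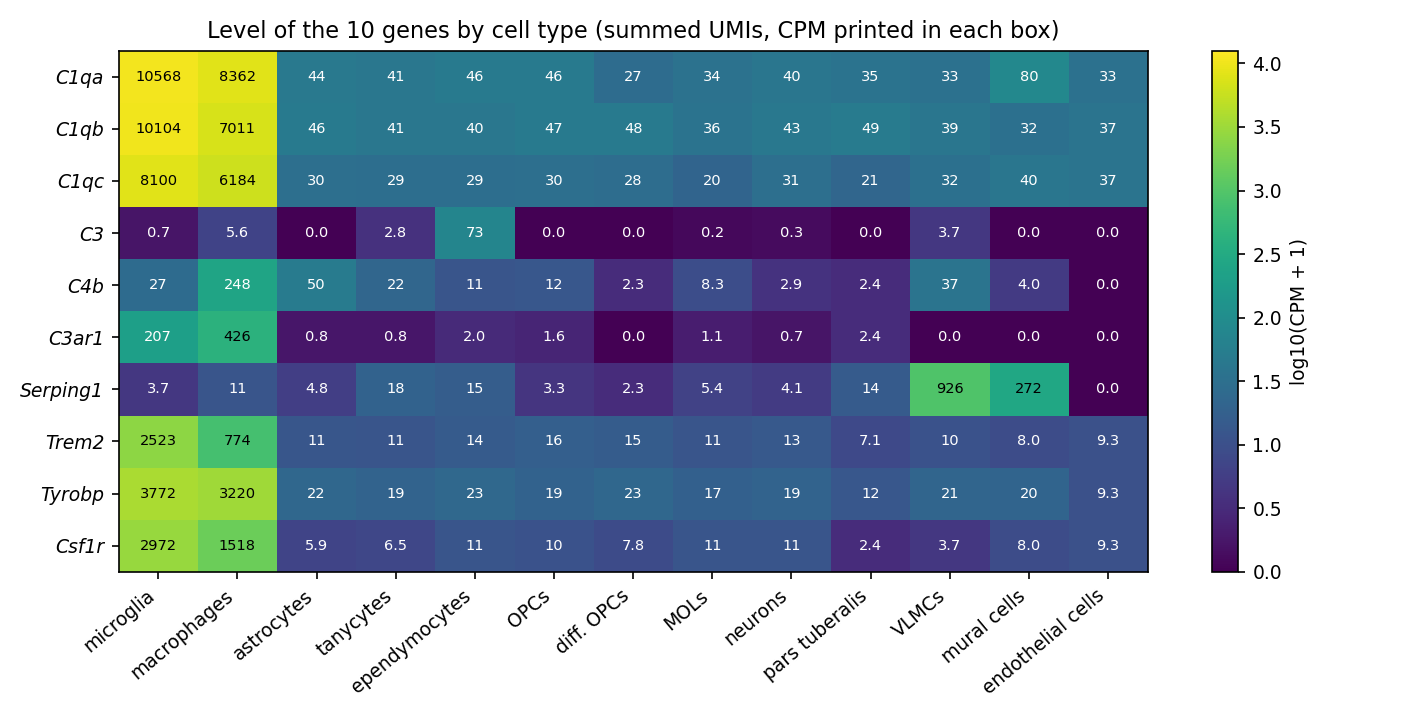
Level of each of the 10 genes (rows) in each cell type (columns), as summed UMIs per 1e+06 UMIs (CPM), with the colour on a log10(CPM + 1) scale. The C1q chains, Trem2, Tyrobp, Csf1r and C3ar1 were high in the first 2 columns, while C3 stood highest in ependymocytes (72.9 CPM) and Serping1 in VLMCs (926 CPM).

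The genes fell into a myeloid group and a group of other sources. For 7 of them, C1qa, C1qb, C1qc, Trem2, Tyrobp, Csf1r and C3ar1, microglia and macrophages together held from 88.5% (Tyrobp) to 94.1% (Csf1r) of the UMIs in all cells. The other 3 lay mostly elsewhere: cells outside microglia and macrophages held 99.2% (98.4 to 99.6) of the 1081 Serping1 UMIs, 97.0% (91.4 to 99.4) of the 99 C3 UMIs and 78.7% (75.2 to 82.0) of the 587 C4b UMIs.

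**Figure D2:**
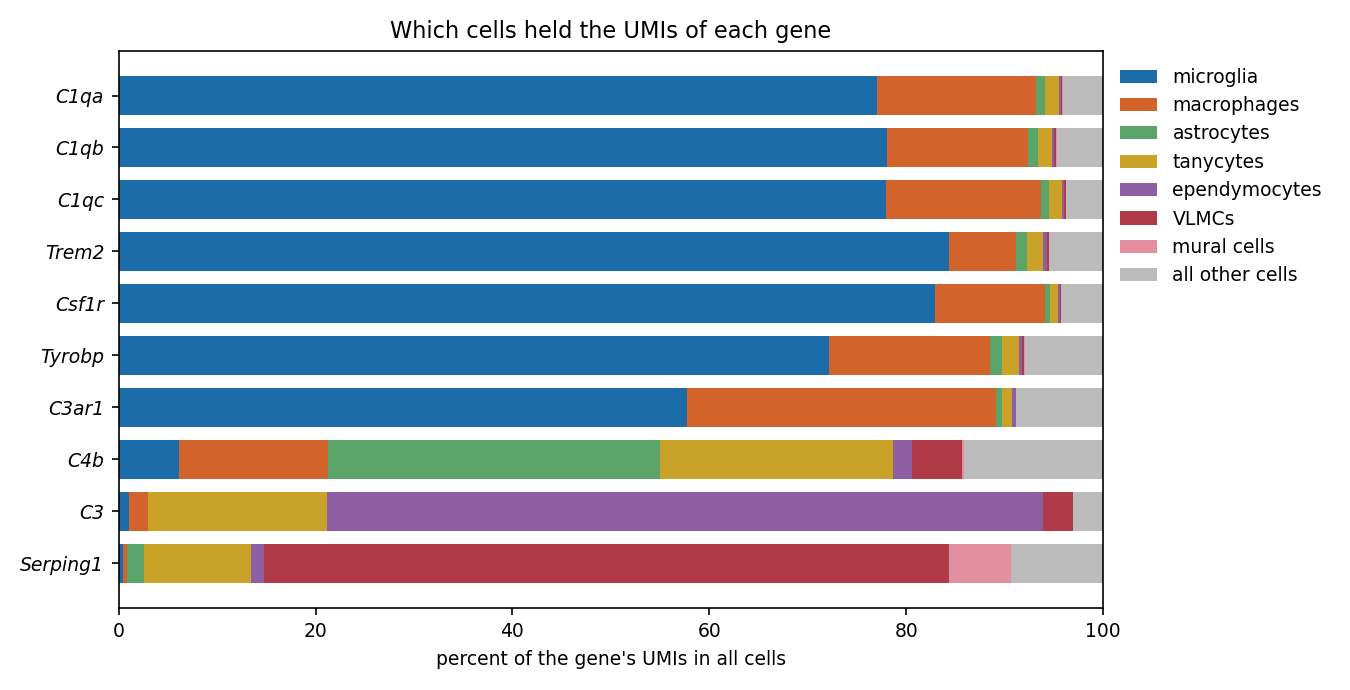
Share of each gene's UMIs (x axis, percent of that gene's UMIs in all cells) held by each cell type, 1 bar per gene. Blue and orange, microglia and macrophages, fill at least 88.5% of 7 bars, but 21.3% of the C4b bar, 3.03% of the C3 bar and under 1% of the Serping1 bar.

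C1qa, C1qb and C1qc lie side by side on chromosome 4 of GRCm38, all on the minus strand and with 3 exons each, within 18.7 kb (C1qb, ENSMUSG00000036905, chr4:136880129-136886187; C1qc, ENSMUSG00000036896, chr4:136889804-136893065; C1qa, ENSMUSG00000036887, chr4:136895917-136898803). C1qa had 10568 CPM in microglia (10872, 11321, 10353 and 8837 in barcode numbers 1 to 4) and 8362 CPM in macrophages (9334, 7994, 7853 and 7854). The 2 ranges overlapped, since the lowest microglial value lay under the highest macrophage value. Within each of the 4 barcode numbers, though, C1qa was higher in microglia. C1qb had 10104 CPM in microglia (9895, 10577, 10262 and 9466) and 7011 CPM in macrophages (7367, 7066, 6388 and 7203), with no overlap. C1qc had 8100 CPM in microglia (8006, 8411, 8171 and 7637) and 6184 CPM in macrophages (6384, 5976, 5584 and 7131), also with no overlap. The ratio of microglia to macrophages was 1.26 (1.22 to 1.32) for C1qa, 1.44 (1.381 to 1.504) for C1qb and 1.31 (1.25 to 1.37) for C1qc, so that none of the chains reached the 2-fold difference taken as a call. The makeup of C1q UMIs was also close: C1qa, C1qb and C1qc gave 36.7%, 35.1% and 28.2% of them in microglia and 38.8%, 32.5% and 28.7% in macrophages.

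Trem2 separated the classes. Trem2 (ENSMUSG00000023992, chr17:48346401-48354147, plus strand, 5 exons) had 2523 CPM in microglia (2546, 2594, 2496 and 2375 in the 4 barcode numbers) and 774 CPM in macrophages (659, 777, 1024 and 597). Every microglial value lay above every macrophage value, and the ratio was 3.26 (2.88 to 3.70). Its signalling partner Tyrobp (ENSMUSG00000030579, chr7:30413760-30417585, plus strand, 5 exons) had 3772 CPM in microglia (3678, 3889, 3873 and 3637) and 3220 CPM in macrophages (3284, 3170, 3304 and 3040), a ratio of 1.17 (1.099 to 1.25). For each 100 C1q UMIs, microglia held 8.77 Trem2 and 13.1 Tyrobp UMIs, against 3.59 and 14.9 in macrophages. Csf1r lay between: 2972 CPM in microglia (2934, 2921, 3124 and 3012) and 1518 CPM in macrophages (1572, 1676, 1388 and 1339), a ratio of 1.96 (1.79 to 2.14), which is just short of the 2-fold call. The whole of each microglial range was above the macrophage range for both genes.

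The promoters of C1qb and Trem2 are shown because both genes were high in microglia but differed in their macrophage level, and that of C3 because its UMIs lay mostly in ependymocytes; 5 of the 10 members were in the promoter table. The 250 bases before each RefSeq start (GRCm38.p6) are shown in the direction of the gene for C1qb (chr4:136886201-136886450, minus strand), Trem2 (chr17:48346151-48346400, plus strand) and C3 (chr17:57228137-57228386, minus strand). Capitals mark every match, on either strand, to GAGGAA (core of sites of PU.1, the product of Spi1), TTGCNNAA (C/EBP factors) and GTTGCC (RFX factors).
C1qb: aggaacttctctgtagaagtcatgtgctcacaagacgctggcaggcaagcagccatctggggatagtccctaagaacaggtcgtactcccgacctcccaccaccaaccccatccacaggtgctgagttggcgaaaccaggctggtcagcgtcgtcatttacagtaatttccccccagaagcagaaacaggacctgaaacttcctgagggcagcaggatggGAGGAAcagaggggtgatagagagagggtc
Trem2: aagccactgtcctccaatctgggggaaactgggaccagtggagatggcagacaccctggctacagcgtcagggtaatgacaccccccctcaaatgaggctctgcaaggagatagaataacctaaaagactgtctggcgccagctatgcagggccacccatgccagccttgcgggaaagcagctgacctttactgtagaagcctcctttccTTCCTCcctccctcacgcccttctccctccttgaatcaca
C3: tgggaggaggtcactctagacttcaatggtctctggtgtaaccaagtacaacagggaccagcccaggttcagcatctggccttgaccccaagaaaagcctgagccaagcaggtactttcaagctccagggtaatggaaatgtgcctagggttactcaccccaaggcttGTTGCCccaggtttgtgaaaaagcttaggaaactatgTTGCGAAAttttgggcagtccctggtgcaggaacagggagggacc
GAGGAA was found in C1qb at 30 bases before the start and in Trem2, on the other strand, at 40 bases before it, and in 23.25% of all 32851 promoter windows of this length. C3 held TTGCNNAA at 45 bases and GTTGCC at 82 bases before its start, which 9.56% and 10.4% of all windows hold. C1qc held GAGGAA at 193 bases before its start, and the C3ar1 window held none of the 3 motifs. No 2 matches overlapped. A match describes the letters of the window and shows no binding.

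C3ar1 and C4b went the other way. C3ar1 (ENSMUSG00000040552, chr6:122847138-122856161, minus strand, 2 exons), the receptor for the C3a fragment, had 426 CPM in macrophages (483, 343, 441 and 434) and 207 CPM in microglia (224, 198, 233 and 176). Its ratio of macrophages to microglia was 2.06 (1.68 to 2.52), just past the 2-fold call, and without the cells whose barcode sequence occurred under more than 1 number it was not called. A C3ar1 UMI was found in 76 of 112 macrophages (67.9%), 152 of 404 microglia (37.6%) and 22 of the 5253 cells of the other named types (0.419%), and in 34.8%, 15.8% and 0.133% at 1000 UMIs per cell. C4b (ENSMUSG00000073418, chr17:34728380-34743882, minus strand, 41 exons), the target of C1s, had 248 CPM in macrophages (386, 252, 143 and 127) and 26.5 CPM in microglia (23.04, 38.3, 15.2 and 19.5), a ratio of 9.35 (6.28 to 14.2). The macrophage values were uneven, from 127 to 386 CPM, but each lay above every microglial one. C4b was found in 36 of 112 macrophages and 25 of 404 microglia, or in 18.8% and 2.97% at 1000 UMIs per cell. C4b has a near-identical neighbour, C4a, whose symbol was not among the matrix rows, so reads of the pair may not have been told apart. Serping1 had 5 UMIs in microglia and 4 in macrophages, and C3 had 1 and 2, too few for a ratio.

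**Figure D3:**
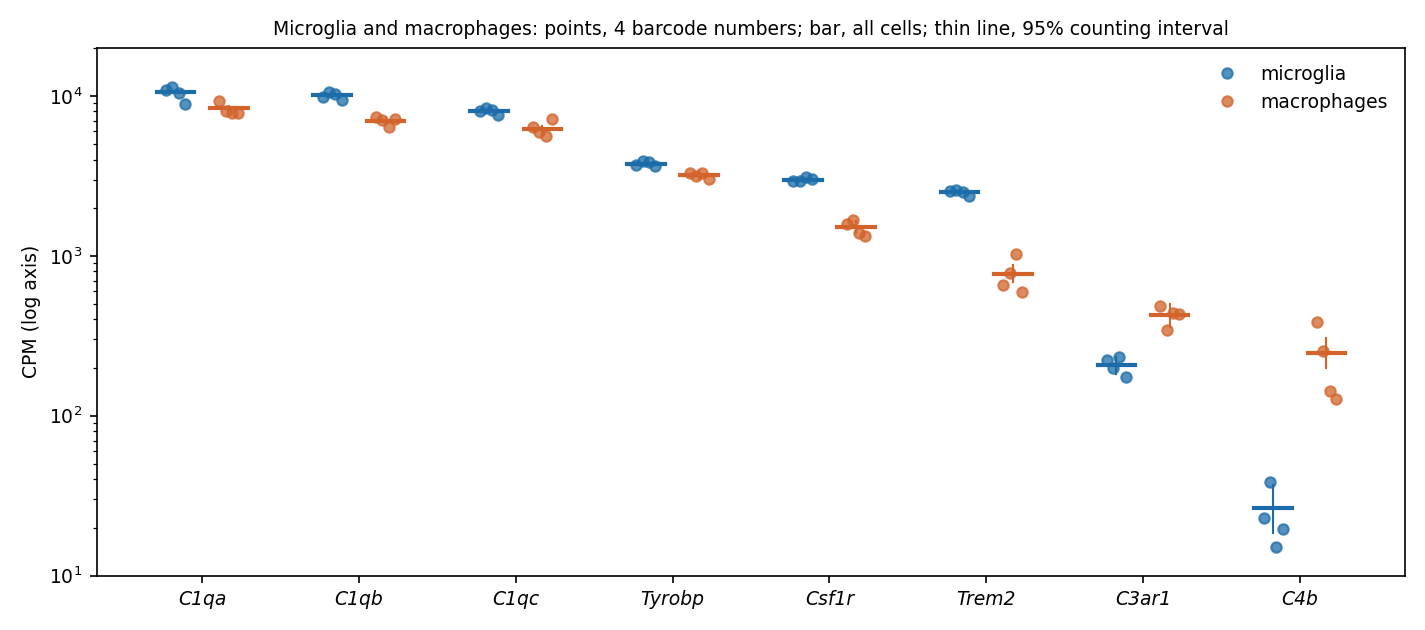
CPM (log axis) of the 8 genes with at least 50 UMIs over both classes, in microglia (blue) and macrophages (orange). Points are the 4 barcode numbers, bars all cells and thin lines the 95% counting interval. Trem2 and Csf1r were higher in microglia and C3ar1 and C4b in macrophages in all 4. C1qa was also higher in microglia within each number, though points of different numbers overlapped.

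These counts can be set beside all 4455 genes that had at least 50 UMIs over both classes. Of the 8 members tested, Trem2 alone was at least 2-fold higher in microglia, where 7.83% of all genes were, and C4b and C3ar1 were at least 2-fold higher in macrophages, where 3.86% were. The 4 microglial values lay above all 4 macrophage values for 5 members (C1qb, C1qc, Trem2, Tyrobp and Csf1r) and for 14.4% of all genes, and below them for 2 members (C3ar1 and C4b) and for 6.96%. Each barcode number held 60 to 140 microglia and 17 to 38 macrophages. The genes counted include some that formed or named the classes, while the members were left out of both steps.

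Macrophages were of 3 kinds, and the level of the myeloid genes varied among them. Ccl12 and Pf4 were among the leading genes of all 3, and Fcrls, a microglial marker, among those of the first and second. Beside these, the first kind (45 cells) was led by Ccl8, Cxcl10 and Rsad2. The second (38 cells) was led by Cbr2 and Folr2, markers of macrophages along brain borders and vessels. The third (29 cells) was led by genes of MHC class II (H2-Eb1, H2-Aa, Cd74), Cxcl2 and Il1b. The first kind scored 0.412 for the macrophage markers and 0.315 for the microglial markers, the second 0.863 and 0.177. Cx3cr1, a microglial marker, was at 1064, 271 and 640 CPM in the 3 kinds, and P2ry12 at 135, 121 and 103 CPM. C1qa stood at 9507, 8179 and 6732 CPM in the 3 kinds, an order that held in barcode numbers 1 and 2 only. It was at 8773, 9094 and 5107 CPM in number 3 and at 7836, 6810 and 11664 CPM in number 4. Trem2 stood at 980, 644 and 589 CPM and Csf1r at 1709, 1569 and 1156 CPM, while Tyrobp was at 2877, 3576 and 3376 CPM. The Trem2 order held in barcode numbers 1, 2 and 4 but not in number 3 (1667.8, 629.2 and 812.5 CPM). Its intervals overlapped between the Cbr2-led kind (501.2 to 815.3) and the MHC class II kind (445.7 to 762.5). The Csf1r order held in numbers 2 and 4 but not in numbers 1 and 3. C4b was found in all 3, at 277, 252 and 196 CPM, from 43, 27 and 19 UMIs, and C3ar1 at 542, 308 and 372 CPM. In the MHC class II kind, C4b was at 367 and 111 CPM in barcode numbers 1 and 2 and at 0 in numbers 3 and 4. Trem2 in each kind was thus far below its microglial level. The kinds are small and were defined in the cells compared, so these levels are a description.

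Cells that had first clustered with the macrophages but did not score as such set a limit to the group. In a sub-cluster of 23 cells led by Cd74, Ccr2 and Cd209a, genes of dendritic cells and monocytes, Tyrobp was at 2213 CPM but C1qa at 1500 CPM, Trem2 at 338 CPM, Csf1r at 441 CPM and C4b at 0 UMIs. It scored 1 for the B cell markers and 1 for the dendritic cell markers, and which cells it held was not tested. Its C1qa was uneven, at 3309, 1389, 65.4 and 136 CPM in barcode numbers 1 to 4. In a sub-cluster of 15 cells led by Nkg7 and Gzma, genes of cytotoxic lymphocytes, C1qa had 1 UMI, and Trem2, Csf1r and C3ar1 had 0, while Tyrobp had 44 UMIs in 5 cells. Tyrobp, which also serves receptors of NK cells, was the only member above 1 UMI there. With all 157 cells of the first cluster counted as macrophages, C3ar1 lost its call and C1qb and Csf1r gained one in favour of microglia.

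Cell by cell, C1q was close to universal in both classes. All 404 microglia and all 112 macrophages had at least 1 UMI of each of the 3 chains. After each cell was thinned to 1000 UMIs, microglia held a median of 29 C1q UMIs (range 2 to 59) and macrophages 22 (range 8 to 42), and no cell of either class was without them. The standard deviation between cells was 28.6% of the mean in microglia and 31.4% in macrophages, against 18.4% and 21.2% from counting alone. Across thinned microglia the chains were weakly related, with Pearson r of 0.27, 0.29 and 0.21 for the 3 pairs over 404 cells that share libraries and depth. In the sub-cluster led by Ccr2 and Cd209a, 12 of 23 cells had no C1q UMI and the rest had 1 to 18.

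**Figure D4:**
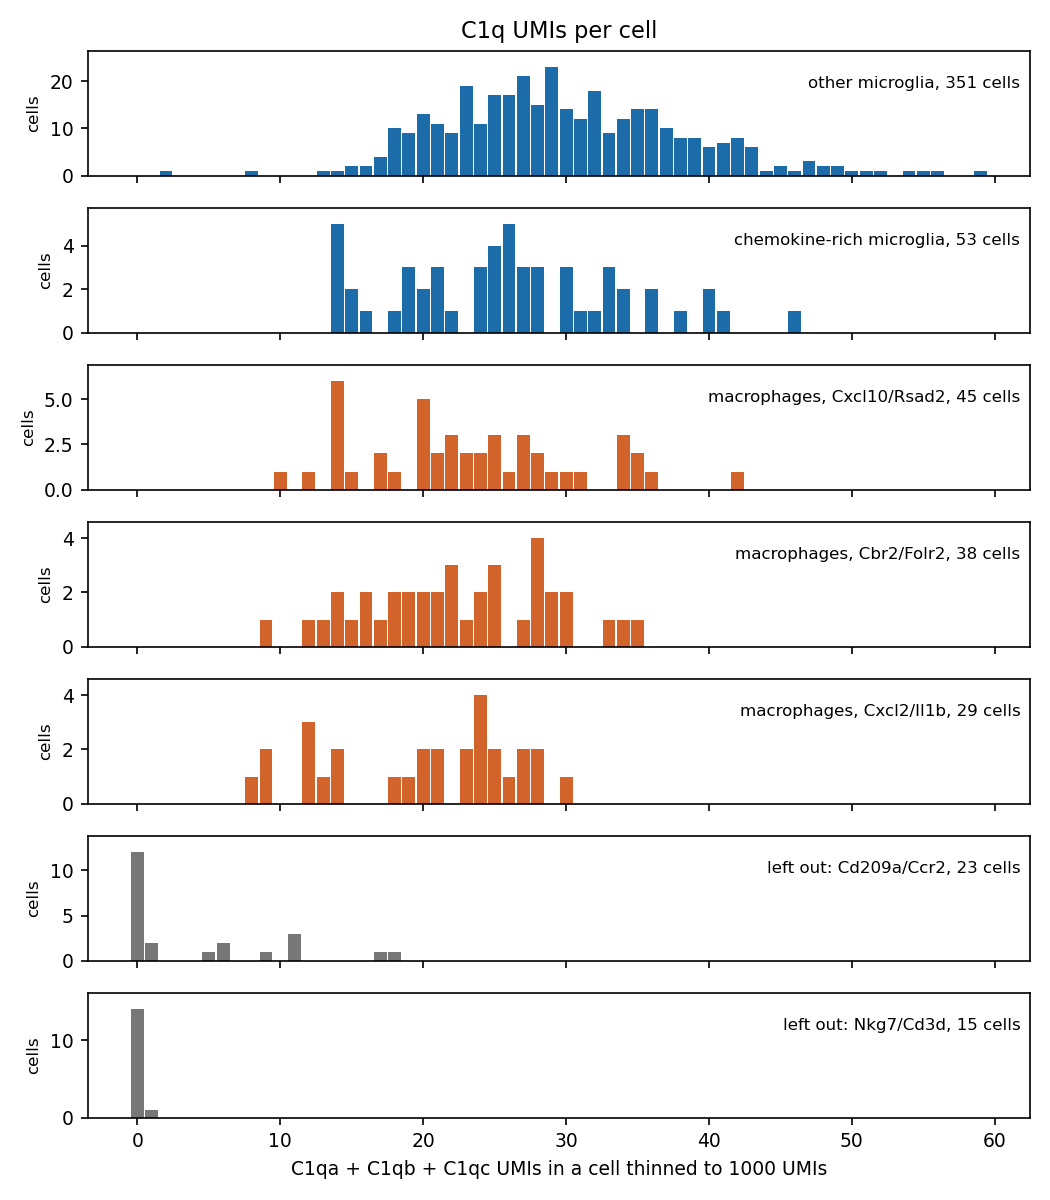
Number of cells (y axis) by the summed C1qa, C1qb and C1qc UMIs of a cell thinned to 1000 UMIs (x axis), for microglia (blue), the 3 macrophage kinds (orange) and 2 sub-clusters left out of the macrophages (grey). Microglia centre on 29 UMIs and macrophages on 22, and the grey panels pile up at 0.

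Outside microglia and macrophages, the same genes were present at a low and even level. The C1q chains summed to 110 CPM over the 5253 cells of the other named types, between 90.1 CPM in MOLs and 152 CPM in mural cells, and to 98.5, 122, 103 and 119 CPM in the 4 barcode numbers. C1q UMIs of all cells made up 0.205%, 0.267%, 0.113% and 0.113% of UMIs in the same numbers, an order that the level outside did not follow. Their makeup was 36.2% C1qa, 38.04% C1qb and 25.7% C1qc. The C1qb and C1qc intervals (36.3 to 39.8 and 24.2 to 27.35) were apart from those of microglia (34.6 to 35.6 and 27.7 to 28.6). Tyrobp, Trem2 and Csf1r were present beside them at 17.5, 10.8 and 7.78 UMIs per 100 C1q UMIs, against 13.1, 8.77 and 10.3 in microglia. 3187 of these cells had no C1q UMI, 2065 had 1 to 9, and 1 had 34, which was called a doublet. The source of this level, within these cells or outside them, was not tested. Astrocytes had a C1qa UMI in 11.6% of cells at a median depth of 2665 UMIs, and in 4.37% at 1000 UMIs per cell. C3ar1 had 0.862 CPM over these cells.

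Microglia themselves came in 2 clusters, and none of the 7 members tested was called between them, as was true of most genes. A cluster of 53 cells stood out for early response and chemokine genes: Fos was at 3764 CPM against 107 CPM in the other 351 microglia, Ccl4 at 1029 against 91.9 CPM and Ccl3 at 543 against 61.9 CPM. The cluster was picked because its summed Ccl3 and Ccl4 level was at least 4 times that of the other microglia. The Ccl3 and Ccl4 values thus follow from that rule. Only the members were left out of the clustering, so Fos and the other early response genes were free to shape the split. C1qa was at 9121 against 10809 CPM, C1qb at 9840 against 10147, C1qc at 7048 against 8276, Trem2 at 2415 against 2541, Tyrobp at 3500.5 against 3817 and Csf1r at 3061 against 2957. The ratios ran from 0.84 (0.80 to 0.89) for C1qa to 1.04 (0.95 to 1.13) for Csf1r, with C3ar1 at 0.83 (0.56 to 1.19) from 34 UMIs. None of the 7 members tested was 2-fold different in either direction, where 1.7% of the 3757 genes tested were higher and 3.51% lower in the chemokine cluster. None had its 4 barcode numbers apart either, as 2.42% of genes did upward and 6.36% downward. At such shares, 0 of 7 is not particular to the members. The shares can also include genes that shaped the clusters, while the members were left out of the clustering. Fos and related genes are known to be induced when tissue is digested warm, and the part of dissociation in this cluster was not tested. The cluster was uneven over barcode numbers, with 19, 25, 3 and 6 cells.

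Other genes of these pathways were taken from gene lists. The complement receptor 3 subunits Itgam and Itgb2, which bind C3 fragments, were at 331 and 261 CPM in microglia and 61.3 and 75.2 CPM in macrophages, ratios of 5.40 (3.52 to 8.70) and 3.47 (2.34 to 5.34). The C5a receptor C5ar1 was higher in macrophages (448 CPM, from 161 UMIs) than in microglia (198 CPM), as C3ar1 was, and its ratio was 2.26 (1.85 to 2.76). C5ar1 was not called without barcode number 3, without barcode number 4 or with the whole first macrophage cluster, and its log2 of microglia over macrophages in barcode number 2 was -0.46. C5ar2 was at 55.7 and 74.4 CPM and did not reach the call. Of the 8 receptor genes, 5 were tested, 2 were called for microglia and 2 for macrophages, beside 7.83% and 3.86% of all genes tested. The list median was 0.36 on the log2 scale of microglia over macrophages, beside 0.14 over all genes tested.

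Of 12 genes around TREM2 and TYROBP, 8 were tested. Of these, 3 were called for microglia, Trem2 itself among them, and 1 for macrophages, beside 7.83% and 3.86% of all genes tested. Their median log2 was 0.13, beside 0.14 over all genes tested. Siglech, a receptor that pairs with Tyrobp, was at 681 CPM in microglia and 78.0 CPM in macrophages, and Plcg2, an enzyme downstream of Trem2, at 73.7 and 27.9 CPM. Siglech is also on the microglial marker list used for naming, so its call follows from how the class was made. Apoe, a lipid carrier that Trem2 binds, was at 92545 CPM in macrophages and 22200 CPM in microglia. Hcst, Fcer1g and Syk, which share or relay Tyrobp signals, were within 2-fold. Of 9 genes of the Csf1r pathway, 7 were tested. Among them, Cebpa (267 CPM in microglia against 97.5 CPM) was called for microglia and Maf (1070 CPM in macrophages against 362 CPM) for macrophages, while the transcription factor genes Spi1 (506 against 407 CPM), Irf8 (716 against 398 CPM) and Runx1 (112 against 178 CPM) and Csf1r itself were not called. The list median was 0.83. The ligands of Csf1r were highest in other cells. Il34 had 264 CPM in mural cells, from 66 of its 192 UMIs. Neurons had 11.4 CPM of Il34, over 6781006 UMIs of all genes against 249678 in mural cells, so they too held many of its UMIs. Csf1 was at 43.1 CPM in VLMCs, from 35 UMIs, 41.9 CPM in endothelial cells (84 cells) and 38.4 CPM in MOLs.

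C3 was a gene of the ependymocytes, the ciliated cells that line the third ventricle. C3 (ENSMUSG00000024164, chr17:57203970-57228136, minus strand, 41 exons) had 72 of its 99 UMIs there, 72.7% (62.9 to 81.2), from 47 of 199 cells, with at most 4 UMIs in a cell. Its level was 72.9 CPM (57.0 to 91.8), and it was 96.5, 75.6, 77.1 and 53.6 CPM in the 4 barcode numbers. Tanycytes, the next in UMIs, had 18 UMIs or 2.84 CPM, so the ratio of ependymocytes to tanycytes was 25.7 (15.2 to 45.7), and their ranges over barcode numbers were apart (0 to 8.47 CPM in tanycytes). Of those 18 UMIs, 11 were in 1 cell of 3705 UMIs, and without it tanycytes had 1.104 CPM. Astrocytes had 0 of 1420 cells with C3, which allows a share of up to 0.211% of cells with a UMI. Beside C3, ependymocytes were the highest type for Hc, which encodes complement C5 (47.6 CPM, from 47 of 82 UMIs, against 3.16 CPM in tanycytes), and for Cd55, which disarms the C3-cutting enzyme (79.0 CPM against 39.4 CPM in VLMCs). C3 was found in 15 of the 38 ependymocytes with a Hc UMI (39.5%, 24.04 to 56.6) and in 32 of the 161 without (19.9%, 14.01 to 26.9), at median depths of 4928 and 4852 UMIs. At 1000 UMIs per cell the 2 shares were 7.89% and 6.83%, and Hc-positive cells were not higher in barcode number 4 (40.1 against 57.4 CPM).

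C4b had the widest spread of sources. Its highest type outside the macrophages was the astrocytes, with 50.4 CPM (43.7 to 58.0) and 33.7% of all its UMIs (61.0, 38.3, 54.1 and 48.8 CPM by barcode number). Tanycytes, the glia that line the floor of the ventricle and send processes to the capillaries, had 21.9 CPM and 23.7% of the UMIs. VLMCs had 36.9 CPM, but 20 of their 30 UMIs were in 2 of 268 cells, and without these cells they had 12.3 CPM. Neurons had 2.95 CPM and endothelial cells 0 UMIs, which allows up to 13.95 CPM.

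Within both glial types C4b was highest where Gfap was, the intermediate filament gene of fibrous and reactive astrocytes. A tanycyte cluster of 428 cells led by Gfap (568 CPM, against 9.75 CPM in the other tanycytes) had 57.5 CPM of C4b (44.6, 45.1, 75.7 and 69.4 by barcode number). The other 1063 tanycytes had 6.35 CPM of C4b (range 4.59 to 8.81), a ratio of 9.06 (5.94 to 14.2), and the ranges were apart. This cluster also held 17 of the 18 tanycyte C3 UMIs, and Serping1 at 30.1 CPM against 13.4 CPM in the other tanycytes. Markers of other glia were higher in it too. The 8 astrocyte markers summed to 2444 CPM (2376 to 2540 by barcode number), against 710 CPM in the other tanycytes (665 to 744) and 18053 CPM in astrocytes. The 7 ependymocyte markers summed to 3420 CPM, against 1590 CPM in the other tanycytes and 13284 CPM in ependymocytes, where C4b itself was lower (11.1 CPM). Their part in the C4b level was not tested. An astrocyte cluster of 218 cells, with 564 CPM of Gfap against 71.9 CPM in the other astrocytes, had 116 CPM of C4b (126, 40.7, 165 and 110 by barcode number). The other 1202 astrocytes had 37.8 CPM, a ratio of 3.06 (2.26 to 4.11), in the same direction in 4 of 4 barcode numbers, though the range of the others (21.2 to 52.6 CPM) overlapped. The leading genes of this cluster of 218 cells within astrocytes were Slc38a1 and then Gfap, and it is called Gfap-led below. Rax, Mia and Dynlrb2, which also led tanycyte clusters, were among its leading genes too. Its astrocyte markers summed to 14029 CPM against 18838 CPM in the other astrocytes, and its ependymocyte markers to 759 against 416 CPM. Their part was not tested either.

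The relation was also seen between single cells of a cluster. In the Gfap-led astrocyte cluster, C4b was found in 27 of 70 cells with a Gfap UMI (38.6%, 27.2 to 51.0) and in 7 of 148 without (4.73%, 1.92 to 9.502), and at 1000 UMIs per cell in 12.9% and 2.03%. Its level was 291 CPM (373, 68.0, 437 and 261 by barcode number) in the first and 19.3 CPM (0, 25.4, 32.8 and 15.6) in the second. In the Gfap-led tanycyte cluster, C4b was found in 42 of 155 cells with Gfap (27.1%, 20.3 to 34.8) and in 26 of 273 without (9.52%, 6.32 to 13.6), at 115 and 25.1 CPM, and the thinned shares were 6.45% and 1.47%. In the largest astrocyte cluster (1025 cells), low in Gfap as a whole, the levels were 101 and 29.6 CPM. Cells with Gfap were the higher in all 4 barcode numbers in each of the 3 clusters. Median depths of cells with and without Gfap were 3217.5 and 2643 UMIs in the first cluster, 4183 and 4383 in the second, and 2710 and 2633 in the third. Cells of a cluster are not replicates, and no test was made. When cells were clustered again without doublets, the cells then named astrocytes had 39.9 CPM of C4b, although none of the 138 astrocytes with a C4b UMI had been called a doublet.

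**Figure D5:**
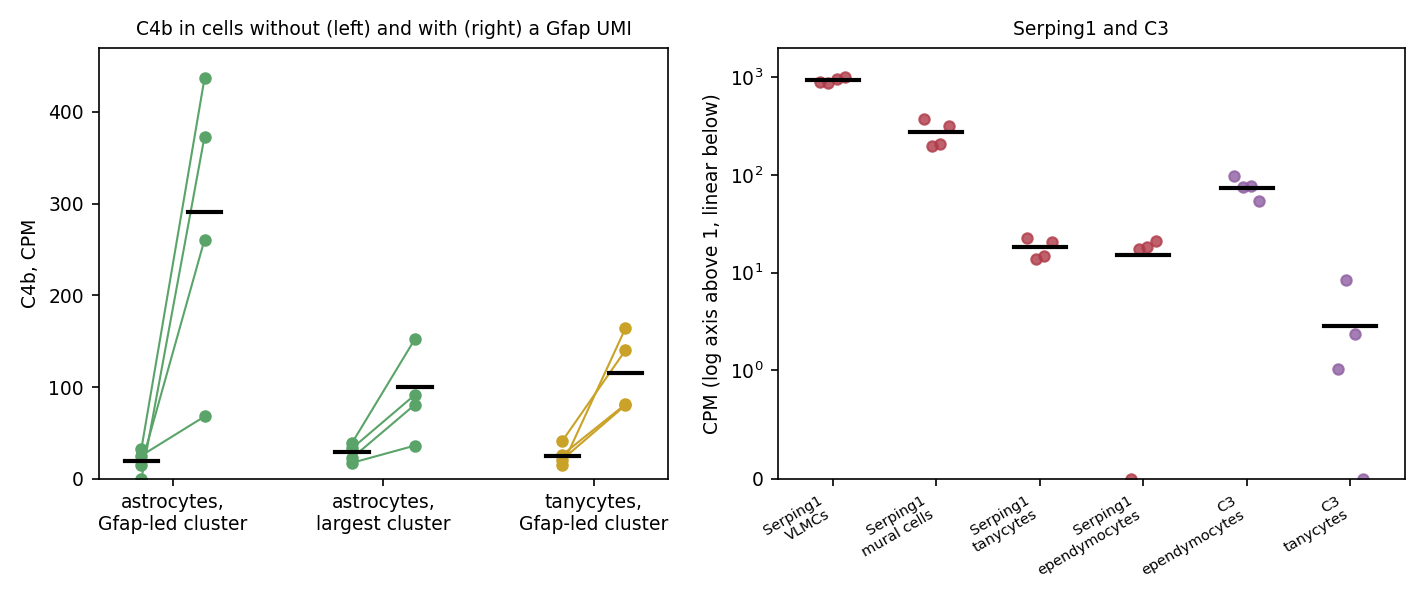
Left, C4b (CPM, y axis) in cells without and with a Gfap UMI in 3 glial clusters; each line is a barcode number and black bars are all cells, and the right end of every line is the higher. Right, Serping1 and C3 (CPM, log axis above 1 and linear below) by cell type, with points for barcode numbers and bars for all cells.

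Serping1 was highest in VLMCs and next in mural cells. Serping1 (ENSMUSG00000023224, chr2:84765387-84775444, minus strand, 8 exons) had 752 of its 1081 UMIs in VLMCs, the fibroblast-like cells around vessels and meninges, which is 69.6% (66.7 to 72.3). Its level there was 926 CPM (861 to 994), even over barcode numbers (894, 864, 951 and 995), and 231 of 268 cells had a UMI (86.2%), or 55.6% at 1000 UMIs per cell. Astrocytes, at a median depth of 2665 UMIs beside 2887.5 in VLMCs, had a UMI in 18 of 1420 cells (1.27%). Mural cells, which are the smooth muscle cells and pericytes, had 272 CPM (376, 196, 205 and 320), below VLMCs in every barcode number, with a ratio of 3.40 (2.65 to 4.42). The 7 VLMC markers summed to 1266 CPM in mural cells (789.5 to 2031 by barcode number), the highest of any other named type, and to 33661 CPM in VLMCs (31685 to 35801), and their part in the mural level was not tested. An unnamed cluster of 21 cells led by Mgp had 298 CPM of Serping1, from 29 UMIs in 8 cells. Endothelial cells had 0 UMIs, which allows up to 13.95 CPM. Ependymocytes had 15.2 CPM and tanycytes 18.5 CPM, though tanycytes held 117 of the UMIs (10.8%), beside 68 (6.29%) in mural cells.

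The genes of the 2 proteases that Serping1 blocks were highest in the same cell types. C1ra had 99 of its 150 UMIs in VLMCs (122 CPM) and 32.0 CPM in mural cells, and C1s1 had 93.6 CPM in VLMCs and 124 CPM in mural cells, while neither passed 6 CPM in microglia or macrophages. Within VLMCs, Serping1 was found in 52 of 60 cells with a C1s1 UMI (86.7%, 75.4 to 94.1) and in 179 of 208 without (86.1%, 80.6 to 90.5). Of the 10 initiation genes in the matrix, C1qa, C1qb and C1qc were thus highest in microglia, C4b and C2 in macrophages, C1ra in VLMCs and C1s1 in mural cells, and Masp1, Masp2 and Fcna had under 50 UMIs in all cells. Of the 11 central and terminal genes, 4 had 50 UMIs or more (C3 and Hc highest in ependymocytes, Cfp in macrophages at 80.8 CPM and C8g in endothelial cells from 2 UMIs), and C8a, C8b, C9 and Cfd had 0.

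Genes whose pattern over the 13 types was most like that of each member were found by Pearson r of log2(CPM + 10) among 11016 genes with at least 200 UMIs. For C1qa these were Blnk, Ptafr and Cd86 (r of 0.998 for Blnk), for Trem2 Ikzf1 and Lat2 among others, for Tyrobp Cd33, Fcgr1 and Rac2, for Csf1r Tagap, Cyth4 and Bcl2a1b and for C3ar1 Cd48, Adgre1 and Lrrc25. With 2 high types and 11 low ones, such values can be near 1 for many myeloid genes. For C3 they were Slc14a2 (0.98), Prr29 (0.97) and Gm21149 (0.97), for Serping1 Emilin1 (0.98), Crispld2 (0.98) and Col4a5 (0.96), and for C4b, which no gene followed as closely, Mfsd11 (0.87), Cyp27a1 (0.85) and Vcam1 (0.85). The points are cell types that share libraries.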

How the data were processed

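Droplet libraries (10x 3' chemistry) were made from sorted ME cells of 5 fasted and 5 refed mice, pooled by condition. Per the labels, the 32 records are lanes and index parts of 4 libraries. The authors counted UMIs with Cell Ranger 2.0 after mapping to mm10, as their processing notes state; the deposited values are raw whole-number counts of 5982 cells by 27998 genes, 29288898 in all, from 1533 to 25054 per cell. Columns of per-sample values not used numbered 0. Symbols and positions came from GENCODE vM21 (27645 identifiers matched), promoters from RefSeq.

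Counts were scaled, log-transformed and clustered with scanpy 1.11.5 (2000 variable genes without the 10 members, 30 components, 15 neighbours, Leiden resolution 1). Clusters were named from 13 marker lists (score at least 0.3 and 1.5 times the next, 3 markers at least 4-fold up). The macrophage-like cluster was clustered again, a step chosen after seeing the data, and the 3 of 6 sub-clusters whose best list was macrophage with 3 markers at least 4-fold up were kept, with no minimum ratio to the next list; 210 cells stayed unnamed and 3 haemoglobin-rich cells (10% of UMIs or more) formed no type. No cell was removed; Scrublet called 50 doublets, which were kept. Levels are UMIs summed over a group per 1e+06 UMIs (CPM). A call needs a 2-fold difference of CPM + 10 and 50 UMIs over both groups; such fold changes understate low genes. The groups came from 1 sample, so no test was run. Intervals are Clopper-Pearson for shares and Poisson for CPM; a ratio has the interval of the binomial share of its 2 counts. A count of 0 was read as up to 3 counts. UMIs count the 3' ends of transcripts and were not divided by length, so levels were compared within a gene. Cells were thinned to 1000 UMIs by draws without replacement.

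Genes in the text are the 10 members, the genes of the marker and pathway lists, cluster leaders and the 3 genes most like each member. A few genes that this rule names are not reported here. The splits by Gfap, Hc and C1s1 were chosen after values were seen. The members and lists were chosen with earlier results of these data known. Alternatives were Leiden resolutions of 0.5 and 2, members kept among variable genes, doublets left out, a filter on cells (1000 UMIs or more, mitochondrial share up to 20%), leaving out 1 barcode number at a time, thinned cells, a pseudocount of 1 CPM, folds of 1.5 and 4 and no UMI minimum. Added after seeing the data were the whole macrophage-like cluster, 3 cells left out and shared barcode sequences left out. The steps were tested on simulated data.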

Additional observations from a re-analysis of the deposited data

Results flagged for a closer look

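Of 43 sets of 4 barcode-number values (a member in a cell type with at least 50 UMIs), 2 held a value far from the other 3 by Dixon's criterion at 95%, where chance gives about 1 in 20. C1qa in macrophages was 9334 CPM in barcode number 1 and 7853 to 7994 CPM in the others. Tyrobp in tanycytes, where its level was low, was 13.3 CPM in barcode number 3 and 20.1 to 21.4 CPM in the others. The cause was not tested.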

How the results depend on the processing

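No paired analysis was possible because no source says which library or feeding state a barcode number stands for and no result comes from a test. Of 132 values recomputed for 10 main results, 115 stayed within their interval or within 1.5 times their count and 17 moved. These results are counts, shares and levels, for which a reversal was not defined. For the log2 of microglia over macrophages of 8 members, 127 values were recomputed. Of them, 102 stayed within their interval, 25 moved and 0 changed sign. The cause of the moves was not tested. Members past the fold in microglia against macrophages numbered 3, and 1 at a fold of 4 (C4b), with 3 in each run that left out a barcode number. No member was called between the microglial clusters under any setting, and no chemokine cluster was found at Leiden resolution 0.5 or without barcode number 1, so no value was had there. Pathway genes higher in macrophages numbered 7, and 13 at a fold of 1.5, 2 at a fold of 4, 12 with no UMI minimum, 3 with the whole macrophage-like cluster and 4 to 7 with a barcode number left out; 4 (Apoe, C3ar1, C4b and Maf) remained without barcode number 3 or without barcode number 4. Those higher in microglia numbered 8, and 2 at a fold of 4 (Itgam and Siglech) and 10 to 12 with a barcode number left out. The 8 and the 2 include Siglech, itself a marker that named the microglia. At the 2-fold call, 7.83% of all genes tested were higher in microglia and 3.86% in macrophages. The share of C4b UMIs outside microglia and macrophages was 78.7%, 68.1% in thinned cells and 77.7% to 85.2% with a barcode number left out; that of C3 was 97.0%, 100% in thinned cells and 95.9% to 98.7%; that of Serping1 was 99.2% and 99.1% to 99.7%. C4b in astrocytes was 50.4 CPM, and 39.9 CPM with doublets left out and cells clustered again, 39.2 CPM under the cell filter, 40.1 CPM in thinned cells and 46.4 to 55.0 CPM with a barcode number left out. Ependymocytes for C3, astrocytes for C4b and VLMCs for Serping1 were the highest types outside microglia and macrophages under every setting run. The macrophage class held 45 to 73 cells with a barcode number left out and 86 to 93 under the other clusterings. C3 rests on 99 UMIs and each macrophage sub-cluster on 29 to 45 cells.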
